A study of Mus musculus with 12 samples.

Results

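The SOCS family consists of 8 genes in the mouse, Cish and Socs1 to Socs7, and its proteins act as feedback inhibitors of cytokine signalling. When a cytokine binds its receptor, the attached JAK kinases phosphorylate the receptor and the STAT transcription factors, and STATs switch on genes that include several SOCS genes. The SOCS proteins then bind phosphorylated sites through an SH2 domain, and through their SOCS box they bring in Elongin B, Elongin C and Cullin 5, which attach ubiquitin to bound proteins. In T cells, the mRNAs of Socs1, Socs3 and Cish are known as targets of N6-methyladenosine (m6A), a methyl mark on adenosines of mRNA that can shorten its life, and loss of the mark there is known to raise SOCS activity.

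Lung RNA was examined for m6A by MeRIP-seq, in which fragmented RNA is pulled down with an antibody to m6A (IP) and sequenced beside the untreated fragments (input). Female BALB/c mice aged 6 to 8 weeks formed an asthma group and a control group, with 3 mice sequenced in each, and gave 6 IP and 6 input libraries. The OVA group was injected with ovalbumin and aluminum hydroxide into the peritoneum on days 0 and 7 and breathed a 3% ovalbumin aerosol for 30 min a day from day 14 to day 20, whereas the PBS group received phosphate-buffered saline at the same times. On day 21, mice of both groups went through a methacholine provocation test before tissue was taken, so neither group is untouched lung.

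The files give 1 list of peaks for each group, a peak being a stretch of exons where the IP was enriched over the input. Peaks belonged to the SOCS family when the gene on which they were called, or the gene to which they were assigned afterwards by position, was one of the 8 genes. This gave 17 of the 27292 peaks in the OVA list and 15 of the 26102 peaks in the PBS list, on 8 of the 12720 protein-coding genes with a peak in either list. The lists hold no values of single mice and no read counts, so there is no replicate error, the depth behind a peak is unknown, and no difference between the groups could be tested from them. Each list was made separately by the authors, so counts and ratios across the lists are read beside those over all peaks.

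All 8 SOCS genes carried at least 1 m6A peak in both groups. Of the RefSeq protein-coding genes, a peak was listed for 55.3% in OVA and for 53.9% in PBS, and 12.1% of those with a peak in either list had one in a single list. In the OVA list, Socs2 had 4 peaks, Socs6 had 3, Cish, Socs1, Socs5 and Socs7 had 2 each, and Socs3 and Socs4 had 1 each. The PBS list differed from this in Socs6, with 2 peaks, and Socs1, with 1 peak. The mean number of peaks for a SOCS gene was 2.12 in OVA and 1.88 in PBS, beside 2.07 and 2.05 for all protein-coding genes on which a peak was called.

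Most peaks of the family had a counterpart in the other group, as most peaks of the lists did. Of the 17 OVA peaks, 14 shared at least 1 exonic base with a PBS peak, and 3 did not. These 3 are 17.6% of the family's OVA peaks, near the 19.4% of all OVA peaks that had no overlapping PBS peak. All 15 PBS peaks of the family overlapped an OVA peak, and 14.5% of all PBS peaks did not. In exonic length, the OVA peaks of the family covered 11499 bp and the PBS peaks 10837 bp, with 10296 bp in common, which is 89.5% of the OVA bases and 95.0% of the PBS bases. Over all peaks, 82.9% of the OVA bases and 88.4% of the PBS bases were in common. Shared bases made up 86.0% or more of the OVA bases in 7 genes, and 34.8% in Socs1. With 50% of both peaks required to overlap, 5 of 17 OVA and 3 of 15 PBS peaks had no partner, beside 31.4% and 28.3% of all peaks.

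**Figure D1:**
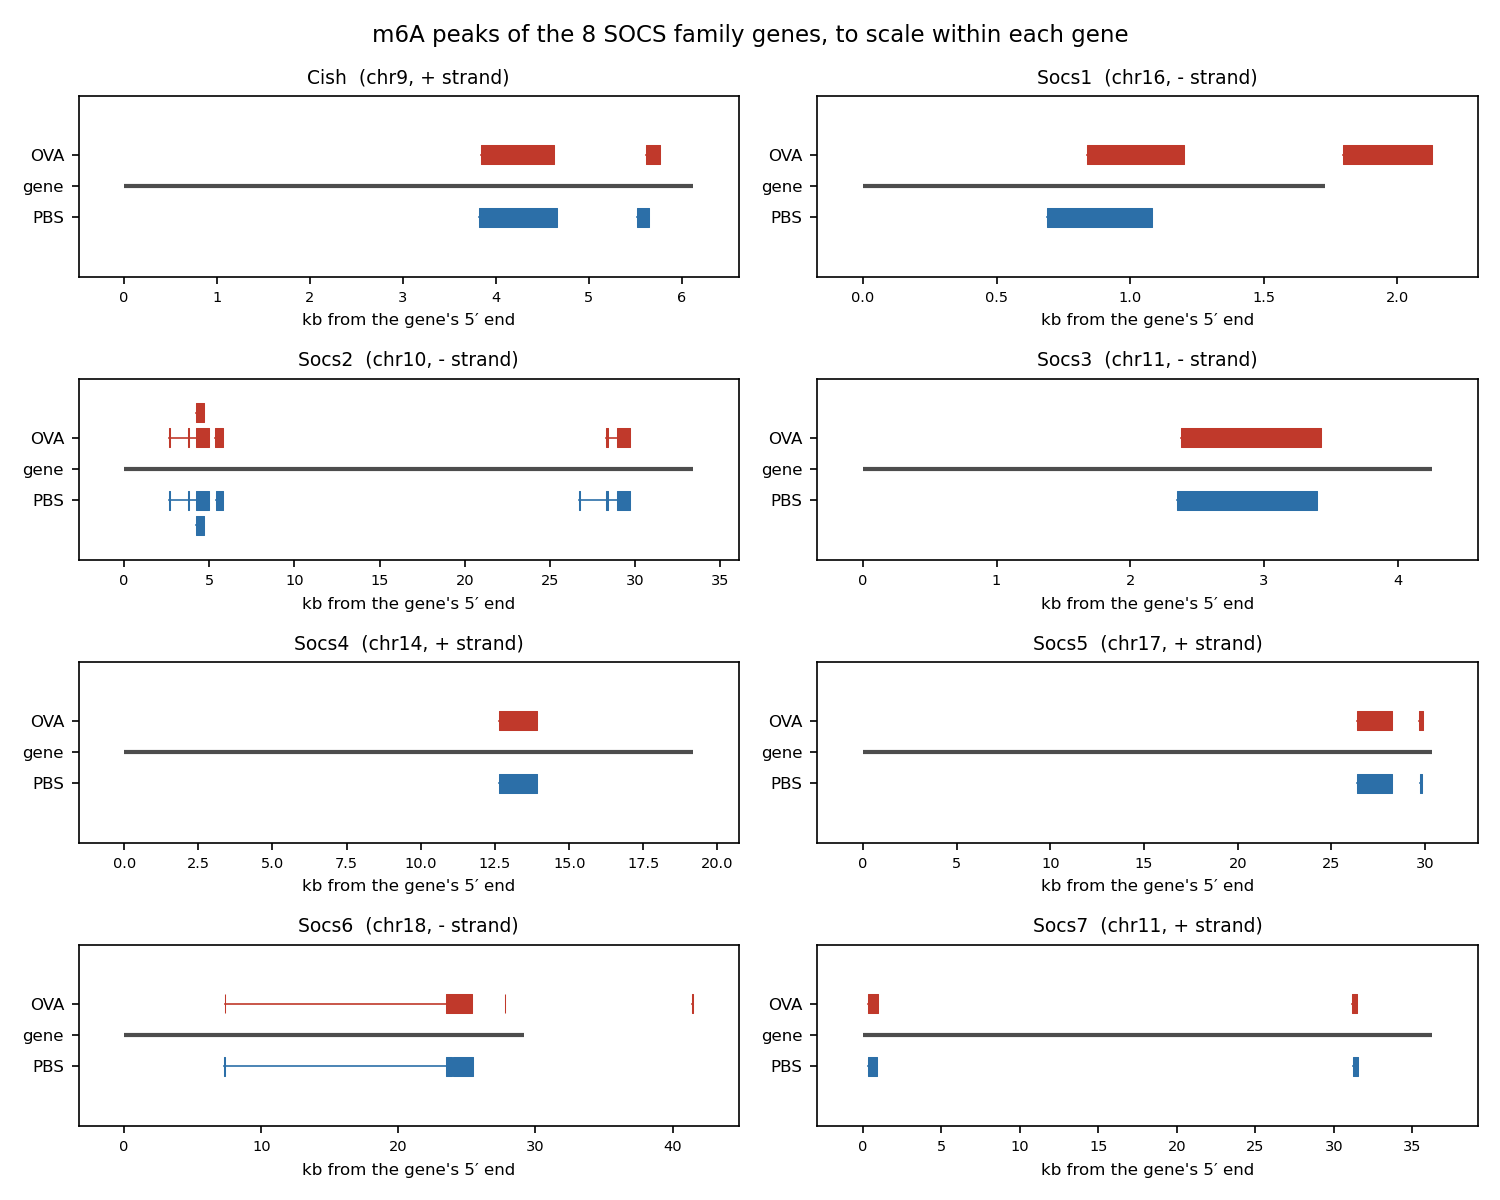
Position of every m6A peak of the 8 SOCS genes in the OVA list (red, above) and the PBS list (blue, below), with the horizontal axis in kb from the 5′ end of the RefSeq gene (black line). Boxes are exonic blocks, thin lines join blocks of 1 peak across introns, peaks that overlap within a list are drawn on separate levels, and the 2 PBS peaks of Socs6 are too close to be told apart at this scale. The OVA peaks without a PBS partner are the one past the 3′ end of Socs1 and the 2 short peaks towards and past the 3′ end of Socs6.

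The family stood high on the scale of fold enrichment, the ratio of IP over input inside a peak. The median was 12.3 over the 17 OVA peaks and 14.3 over the 15 PBS peaks, beside 5.59 and 5.44 over all peaks of each list. In each list, 12 SOCS peaks were above the median of all peaks, and 5 were above the 90th percentile, which was 18.5 in OVA and 17.3 in PBS. The strongest peak of a SOCS gene ranged in OVA from 10.7 for Socs7 to 26.6 for Socs6, and in PBS from 14.1 for Socs2 to 29.2 for Cish. All 8 were above the median strongest peak of the 11175 protein-coding genes with a peak in both lists, which was 10.4 in OVA and 9.57 in PBS. Socs7 in OVA lay closest to it, at the 51.2 percentile of these genes, and Cish in PBS lay highest, at the 95.5 percentile.

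Cish encodes CIS, which is switched on by STAT5 and restrains signalling by interleukin 2 and related cytokines. Its main peak covered chr9:107300504-107301284 in OVA and chr9:107300474-107301314 in PBS, on the plus strand and labelled 3′ UTR, with its centre 69.1% of the way along the gene. Fold enrichment was 21.7 in OVA and 29.2 in PBS. The caller's log10 p of this peak was -3730 in OVA and -1120 in PBS, and 99.6% of the OVA list and 97.5% of the PBS list had the same or weaker evidence. A weak second peak near the 3′ end had a fold enrichment of 2.29 in OVA, at chr9:107302273-107302424, and 4.28 in PBS, at chr9:107302183-107302304, with only 32 bp in common. The main Cish peak also shared bases with a peak of Gm17041, a gene annotated as antisense, by 197 bp in OVA and 227 bp in PBS. The Gm17041 peak had a fold enrichment of 4.00 in OVA and 3.89 in PBS. The libraries were made by a dUTP protocol, which keeps the strand of the RNA, but whether peak calling used it is not given in the sources used here. If it did not, reads of Cish and its antisense partner could not be told apart in that overlap.

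Socs1 binds JAK kinases directly and is induced by interferons and interleukin 4 among others. Of all members, it had the smallest share of exonic bases in common between the lists. A peak inside the gene was found at chr16:10784337-10784697 in OVA and chr16:10784457-10784847 in PBS, on the minus strand and labelled as an exon. Both edges of the OVA peak lay further towards the 3′ end of the gene, by 120 bp and 150 bp, and 241 bp were shared. Fold enrichment was 13.2 in OVA and 14.3 in PBS, whereas log10 p was -242 in OVA and -18.8 in PBS. The OVA list alone had another Socs1 peak at chr16:10783408-10783738, labelled 3′ UTR, with a fold enrichment of 14.4 and a log10 p of -5.12. It began 70 bp beyond the 3′ end of the RefSeq gene but inside the transcript to which the authors' annotation assigned it. By log10 p, this peak was weak, with 20.8% of the OVA list at the same or weaker evidence.

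Socs2, known for limiting growth hormone signalling, had the most peaks, with 4 in each list that all had a partner in the other. Of these, 3 lay close together in the 5′ part of the gene, on the minus strand of chromosome 10. The broadest ran over 3 exonic blocks, chr10:95412327-95414700 in OVA and chr10:95412357-95414670 in PBS, with a fold enrichment of 13.0 and 14.1. A peak at chr10:95412658-95413109 had the same coordinates in both lists and lay entirely inside the broad one, so its fold enrichment of 7.07 in OVA and 7.26 in PBS is not a separate measurement of the gene. The next, which began at position 95411489 in both lists, had 4.51 in OVA and 5.48 in PBS. The remaining peak was near the 3′ end, centred 87.2% along the gene, with 12.3 in OVA and 14 in PBS, and the PBS peak ran over 3 blocks where the OVA peak had 2. The broad 5′ peak and its neighbour were centred within the first 16.8% of the RefSeq gene, and both carried the authors' label 3′ UTR. This position counts introns, and where the peaks lie within a coding transcript was not examined.

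Socs3, the inhibitor that binds the gp130 chain of the interleukin 6 receptor, had a single peak of 1045 bp in each list. It covered chr11:117966912-117967956 in OVA and chr11:117966942-117967986 in PBS, on the minus strand and labelled 3′ UTR, so the lists differed by 30 bp at both edges. Fold enrichment was 18.8 in OVA and 19.3 in PBS, and log10 p was -2160 in OVA and -822 in PBS.

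Socs4 to Socs7 have long N-terminal parts and are less tied to cytokine induction than the other members. Socs4 and Socs5 are known for acting on the EGF receptor. The single Socs4 peak, chr14:47289554-47290840 on the plus strand, had the same coordinates in both lists and a fold enrichment of 19.3 in OVA and 15.5 in PBS. It was called on Socs4 and lay within that gene, yet the annotation assigned it to the neighbouring Mapk1ip1l, as 5′ UTR, at a distance of -7426 bp from that transcript's start. The Mapk1ip1l peaks called on that gene itself had a fold enrichment of at most 9.79 in OVA and 6.73 in PBS.

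For Socs5, the main peak at chr17:87133641-87135531 was again identical in both lists, on the plus strand and labelled 3′ UTR, with a fold enrichment of 20.7 in OVA and 20.8 in PBS. Its log10 p was -342 in OVA and -438 in PBS. A weak peak at the end of the gene had 2.58 in OVA and 2.30 in PBS. This weak peak was 212 bp long in OVA, at chr17:87136969-87137180, and 92 bp in PBS, at chr17:87136999-87137090, and the PBS peak lay inside the OVA peak.

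Socs6, which is known to act on receptor tyrosine kinases such as KIT, had the strongest OVA peak of the family. In OVA, 1 peak spanned chr18:88868977-88887027 on the minus strand in 2 blocks, with 1979 exonic bases, a fold enrichment of 26.6 and a log10 p of -712. The PBS list held 2 peaks over the same stretch, one at chr18:88868947-88870355 with 21.5 and one at chr18:88870474-88887057 with 18.8. The OVA peak was labelled 3′ UTR, and the PBS peaks were labelled 3′ UTR and 5′ UTR. Both further OVA peaks of Socs6 had no PBS partner. One of 62 bp at chr18:88866551-88866612 had a fold enrichment of 1.59, the lowest of the family, and a log10 p of -3.34. The other, chr18:88852860-88852981, had 6.16 and a log10 p of -2.67, and it was called on Socs6 although it lay 12188 bp past the 3′ end of the RefSeq gene and was assigned to the processed pseudogene Gm6409.

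Socs7, which binds adaptor proteins such as NCK, had its stronger peak at the start of the gene, centred 1.79% along it, at chr11:97362643-97363242 in OVA and chr11:97362613-97363212 in PBS, on the plus strand. Its label was exon in OVA and 5′ UTR in PBS, with 570 of 600 bp in common. Fold enrichment was 10.7 in OVA and 17.1 in PBS, while log10 p was almost equal, at -23.1 and -24.3. The weaker peak, centred 86.4% along the gene, had 2.54 in OVA and 3.80 in PBS.

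By the authors' labels, 12 of the 17 OVA peaks lay in a 3′ UTR, 4 in another exon and 1 in a 5′ UTR, and of the 15 PBS peaks, 10 lay in a 3′ UTR, 2 in another exon and 3 in a 5′ UTR. The 3′ UTR share was 70.6% in OVA (95% Wilson interval 46.9 to 86.7%) and 66.7% in PBS (41.7 to 84.8%), and 52.7% over all peaks of either list. Over peaks assigned to protein-coding transcripts alone, it was 66.7% of 6 in OVA and 40.0% of 5 in PBS, beside 51.8% and 51.4% of all such peaks. Of the family's peaks labelled 3′ UTR, 8 of 12 in OVA and 8 of 10 in PBS were assigned to a transcript that is not protein-coding, as were 58.8% and 58.6% of all peaks with that label. The intervals cover counting error only, and peaks of 1 gene are not independent. The assigned transcript often did not hold the peak: 8 of 17 OVA and 7 of 15 PBS peaks of the family lay wholly outside it, as did 41.2% and 42.3% of all peaks. It was protein-coding for 6 OVA and 5 PBS peaks of the family, on 4 members in each list, beside 41.8% and 42.5% of all peaks. SOCS peaks were also longer, with a median of 511 exonic bp in OVA and 600 bp in PBS beside 330 and 328 bp over all peaks.

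Set side by side, the fold enrichment of the shared peaks was lower in OVA than in PBS for most pairs. Of the 14 shared pairs, 11 had the lower value in OVA, and 3 pairs, those of Socs4, Socs6 and the weak Socs5 peak, had the higher one. The ratio of OVA to PBS ran from 0.535 for the weak Cish peak to 1.25 for Socs4, with a median of 0.923. The OVA peak of Socs6 was paired with the PBS peak that shared more exonic bases, and its ratio to the other was 1.41. Over all 22009 shared peaks of the series the median was 1.09, the middle 50% lay between 0.858 and 1.37, and 39.6% had the lower value in OVA. No SOCS pair reached a 2-fold ratio in either direction as the lists give it, and 14.3% of all shared peaks did. Once ratios were divided by the median of all shared peaks, 1 pair did, as did 13.9% of all shared peaks. Of the low ratios, 0.626 and 0.668 belonged to the 2 Socs7 peaks and 0.743 to the main Cish peak, and these and the weak Cish peak lay between the 7.47 and 16.4 percentiles of all shared peaks. With so few peaks, several from the same gene and no replicate values, the difference of the medians cannot be told from the spread between mice.

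The caller's p-values were also set side by side, a comparison chosen after its values were seen. For 3 of the 14 shared pairs (21.4%), the log10 p was, leaving out its sign, at least 2 times as large in OVA, and this held for 17.7% of the 21954 shared peaks with a finite p in both lists, so the share in the family was near that of all peaks. Over all shared peaks, the ratio had a median of 1.11, and the middle 50% lay between 0.757 and 1.65. The SOCS pairs had a median of 1.30. Among them, the ratio was 12.9 for Socs1, at the 99.0 percentile of all shared peaks, 3.33 for the main Cish peak, at the 93.1 percentile, and 2.63 for Socs3, at the 89.3 percentile. The fold enrichment of these 3 peaks was 13.2, 21.7 and 18.8 in OVA and 14.3, 29.2 and 19.3 in PBS. For Socs6, the ratio depended on the PBS peak chosen as partner. It was 1.43 against the PBS peak that shared more exonic bases and 3.89 against the other, which became the partner when genomic spans were compared and brought the count to 4, beside 17.8% of all peaks shared by span. The broad Socs2 peak had a ratio of 1.77, and the main peaks of Socs4, Socs5 and Socs7 had 1.09, 0.781 and 0.951. A p-value of this kind depends on the number of reads in a peak as well as on its enrichment, and the lists hold neither read numbers nor expression, so the part of each was not tested. In whole lung, moreover, a different mix of cells and a different amount of RNA per cell cannot be told apart.

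**Figure D2:**
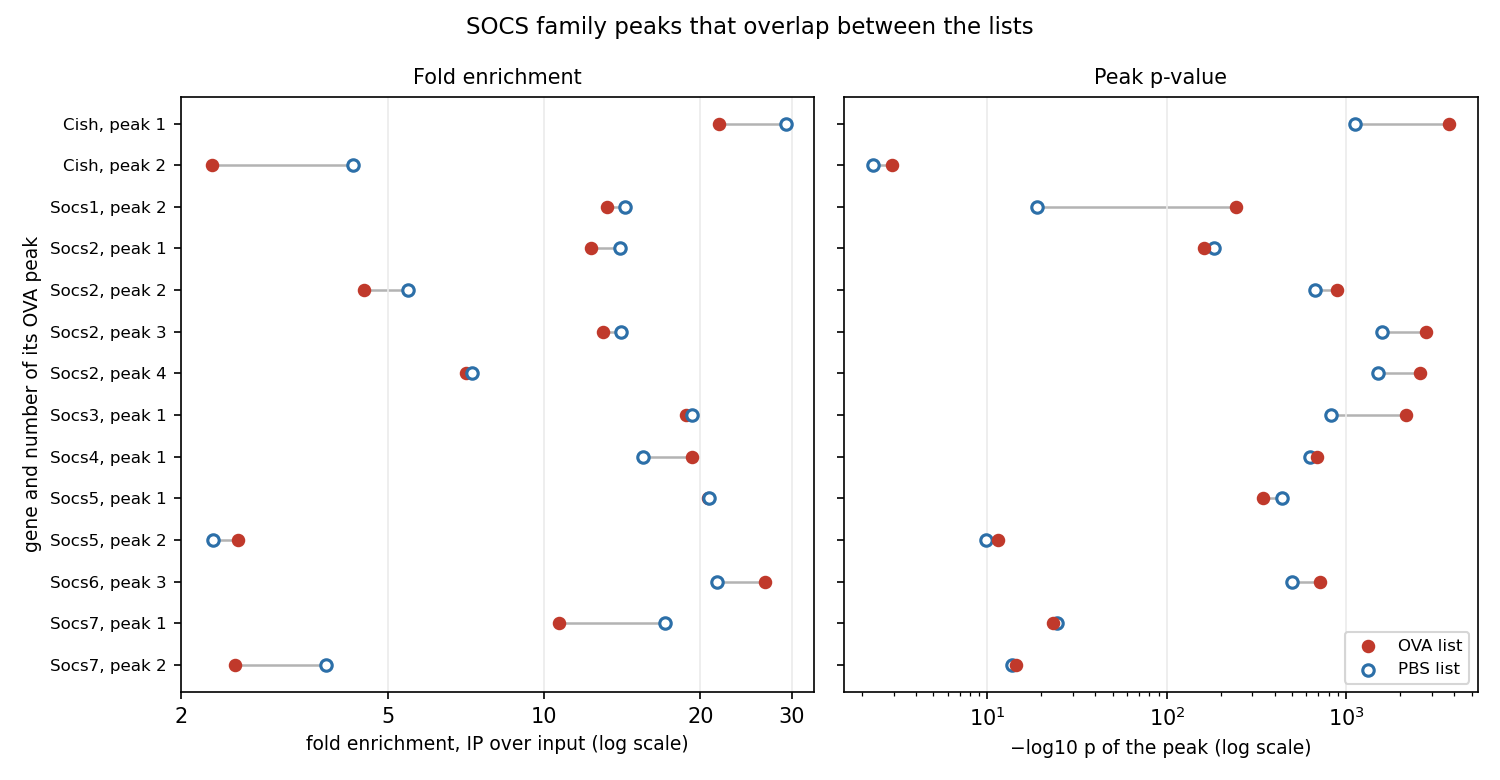
Fold enrichment (left, IP over input, log scale) and −log10 p (right, log scale) of the 14 SOCS peaks that overlap between the lists, with the OVA value as a filled red point and the PBS value as an open blue point, 1 row for each peak, and Socs6 set against the PBS peak that shares more exonic bases. Peaks are numbered by position among the OVA peaks of a gene. No pair is 2-fold apart on the left before centring, whereas on the right the pairs of Socs1, Cish peak 1 and Socs3 are the widest, with ratios of 12.9, 3.33 and 2.63.

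Among the rest of the pathway, 71 of 90 genes in 6 lists carried a peak in OVA and 74 in PBS, and 71 carried one in both. That is 78.9% in OVA and 82.2% in PBS, beside the 55.3% and 53.9% of all protein-coding genes, and the lists ranged from 57.7% of the other SOCS box proteins to 96.6% of the receptors in OVA and from 65.4% of the former to all JAK kinases in PBS. Over those 71 genes the median strongest fold enrichment was 11.8 in OVA and 10.2 in PBS, beside 10.4 and 9.57 over the protein-coding genes with a peak in both lists. Gene by gene, the ratio of OVA to PBS had a median of 0.975 in these lists and of 1.09 over the protein-coding genes. The strongest peak of a gene was taken from each list by itself, so its values may come from different sites. The log10 p of these peaks is not given here. For genes of a list with a peak in both groups, the median was 15.0 in OVA and 12.5 in PBS for the JAK kinases, 9.98 and 9.62 for the STAT factors, and 14.8 and 13.5 for the receptors. It was 5.12 and 7.94 for the ligase partners, 11.2 and 8.88 for other SOCS box proteins, and 11.8 and 12.8 for other negative regulators. The JAK kinases were represented by 3 of 4 genes in OVA and 4 of 4 in PBS. Jak1 and Jak2 had a strongest fold enrichment of 15.0 and 11.8 in OVA and of 12.5 and 13.7 in PBS. Jak3, the kinase of the common gamma chain receptors, had 19.0 in OVA and 4.07 in PBS, whereas Tyk2 had no peak in OVA and a weak one of 2.19 in PBS. Of the 7 STAT factors, 5 had a peak in both lists, with strongest values from 2.36 to 37.7 in OVA and from 5.43 to 25.2 in PBS, and Stat3 and Stat5b had none in either. Stat4, which acts downstream of interleukin 12, had 22.8 in OVA and 9.62 in PBS, and Stat5a had 2.36 and 5.43. Stat2 was the strongest STAT gene in both lists, with 37.7 and 25.2.

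Receptors that signal through JAKs carried a peak in 28 of 29 genes in each group, with Crlf2, a chain of the thymic stromal lymphopoietin receptor, as the one without a peak. Il7r, the interleukin 7 receptor, had 54.9 in OVA and 24.3 in PBS, and Prlr, the prolactin receptor, had 35.9 and 14.3. Epor, the erythropoietin receptor, had 20 and 2.80. In the other direction, Il5ra, the receptor chain through which interleukin 5 acts on eosinophils, had 21.8 in OVA and 52.3 in PBS. These 4 were the receptors whose strongest peaks were at least 2-fold apart. One peak was called on Ifnar2 and assigned to Il10rb, so both genes have the same strongest value, 17.3 in OVA and 22.6 in PBS.

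Of the ligase partners of the SOCS box, 7 of 8 had a peak in each list. Their strongest fold enrichment ran from 1.95 to 12.3 in OVA and from 1.65 to 11.5 in PBS. Elob had no peak, and Cul2, the cullin of the related VHL complexes, had 4.67 and 9.38. Other SOCS box proteins had a peak in 15 of 26 genes in OVA and 17 of 26 in PBS, with Asb13 and Asb14 listed in PBS alone at 3.89 and 4.44. Other negative regulators of cytokine signalling, such as the PIAS proteins and phosphatases, had a peak in 13 of 16 genes in both groups, and none was 2-fold apart. Over all 6 lists, 8 of the 71 genes with a peak in both groups (11.3%) had strongest peaks at least 2-fold apart, beside 13.4% of the 11175 protein-coding genes.

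Socs6 and Socs7, the members with the highest and the lowest strongest OVA peak, were set against those 71 genes by the distance of both strongest values on the log2 scale. The genes most like Socs6 were Lifr, a receptor chain of leukemia inhibitory factor (22.5 in OVA and 19.7 in PBS), Spry2, an inhibitor of growth factor signalling (28.4 and 17.2), and Il10ra, the interleukin 10 receptor (21.3 and 19.4), at distances of 0.27, 0.34 and 0.35. Those most like Socs7 were Il12rb1, a receptor chain of interleukin 12 (10.1 and 19.2), Jak2 (11.8 and 13.7) and the phosphatase gene Dusp1 (11.1 and 12.8), at distances of 0.19, 0.35 and 0.42. The measure uses 1 value of each group for each gene.

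In the annotation that the lists carry, all 7 members to which a peak was assigned were placed in the Jak-STAT signaling pathway and in protein ubiquitination, and 2 of them in negative regulation of inflammatory response. Promoter sequences from RefSeq (GRCm38.p6), reaching from 250 bases before to 50 after a start, were at hand for 4 members, and no m6A peak of the family reached any of them. Short stretches of them are shown because STATs are known to bind SOCS gene promoters. The palindromic letters TTCNNNGAA, the core of STAT binding sequences and the same on both strands, were found in 8.30% of all 32851 promoter windows and 2 times or more in 0.457%. The window of Cish held them 2 times, from positions 1 and 12 counted from the start as 1, and that of Socs3 once, beginning 154 bases before the start. The windows of Socs1 and Socs4 held none, which says only that these letters are not in these 300 bases. The start used for Socs3 lies 970 bp inside the 5′ end of the RefSeq gene. The stretches with the letters in capitals, at chr9:107296653-107296682 on the plus strand and chr11:117969506-117969526 on the minus strand, read 5′ to 3′:
Cish: ccagttTTCCTGGAAagTTCTTGGAAatct
Socs3: ccagccTTCTTAGAAgggagg

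The labelled tissue could be checked only by which lung genes carried a peak, since a gene without m6A has no peak however high its level. Peaks were present in both groups on the epithelial genes Sftpb, Sftpa1 and Scgb1a1, the endothelial genes Cdh5 and Pecam1, the leukocyte gene Ptprc, the eosinophil receptor Ccr3, the T cell gene Cd3e and the mucin Muc5ac. The goblet cell genes differed in direction. Clca1 had 1 peak in OVA, with a fold enrichment of 3.55, and none in PBS. Muc5ac had 3 peaks in each list, with a strongest fold enrichment of 10 in OVA and 20.7 in PBS. The epithelial gene Sftpc and the eosinophil genes Siglecf and Epx had no peak in either list, so among the eosinophil genes only Ccr3 had one.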

How the data were processed

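Before deposit, the authors cleaned reads (FASTP), aligned them (HISAT2), ran exomePeak for each group and added gene annotation (ChIPseeker). The way in which the replicates entered a list is not given in the sources used here. As deposited, fold enrichment is a ratio, IP divided by input. The score that the authors deposited is a log10 value, of the p-value or of the FDR. Coordinates count from 1, and 97.7% of OVA peaks called on RefSeq protein-coding genes overlapped the gene's position on GRCm38.p6. Gene identifiers had a symbol for 27259 OVA and 26070 PBS peaks.

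Peaks were compared by exonic blocks, with 1 bp as the minimum. Partners were taken from the same called gene first, then by the largest shared part. Alternatives were other gene assignments, an FDR under 0.05, a fold enrichment of at least 2, protein-coding transcripts, an overlap of 50% of both peaks, genomic spans, a centred ratio and a threshold of 1.5. Every member is named, with pathway genes at least 2-fold apart or in 1 list only (at most 5 for each list, by strongest peak), the JAKs and STATs, and the 3 genes nearest to 2 members. Lung genes came from a fixed list, and neighbours of members and further genes (Stat2, Stat3, Stat5b, Crlf2, Elob, Ifnar2 and Il10rb) were named after their values were seen. Members and lists were chosen with earlier results of these data known. Calculations ran in pandas 2.3.3 with scipy 1.17.1 and numpy 2.4.6 under Python 3.11.15, plots in matplotlib 3.10.9. The overlap code was tested on simulated data.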

Additional observations from a re-analysis of the deposited data

How the results depend on the processing

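No paired analysis was possible because the files give 1 list for each group with no values of single mice, which also prevents leaving out a mouse, and no result comes from a test. Of 86 alternative values, 69 stayed within 1.5 times the reported count, inside the interval of a share, or equal to a median after rounding. Counting only peaks assigned to protein-coding transcripts left 6 OVA and 5 PBS peaks of the family, on 4 members in each list, with a 3′ UTR share of 66.7% in OVA and 40.0% in PBS, a median fold enrichment of 13.8 in OVA and 18.8 in PBS, and a median ratio of 0.949 over shared peaks. The transcript assigned is often not the one that holds the peak, so this setting can drop a peak by the type of a transcript beside it. Requiring 50% of both peaks to overlap left 5 OVA and 3 PBS peaks of the family without a partner, beside 31.4% and 28.3% of all peaks. With assigned gene names alone, the median fold enrichment was 14.2 in PBS and the median ratio 0.922, and with a fold enrichment of at least 2 the OVA median was 12.7. Divided by the median ratio of all shared peaks, the median ratio was 0.849 and 1 shared SOCS peak was past 2-fold, as were 13.9% of all shared peaks, and at a threshold of 1.5, 2 SOCS peaks and 30.7% of all shared peaks were past it. For the log10 p, alternatives were chosen after seeing the data, and the count was 5 at a ratio of 1.5, beside 30% of all shared peaks, and 4 with genomic spans, where Socs6 has another partner. Without read counts, the depth that limits weak peaks is unknown.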
